A study of Mus musculus with 14 samples.

Results

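The 35 genes described here are the mouse genes of glycolysis and of the response to low oxygen, read as rows of a table of read counts from the superior mesenteric artery (SMA). They were taken by symbol from a list, and all 35 were found among the 46095 gene symbols of the table and passed the filter on low counts, which left 17693 genes for testing. The list holds the glucose transporter Slc2a1, 15 glycolytic enzymes, 3 regulators of glycolysis and 12 targets of hypoxia. A further 4 genes encode alpha subunits of the hypoxia-inducible factors and the prolyl hydroxylases that act on them. RNA was sequenced from 14 C57BL/6 mice aged 8 weeks: 3 Drp1 +/+ (WT) and 4 Drp1 flox/+ (KO) mice were kept normal, and ischemia was imposed on a further 3 WT and 4 KO mice. KO is the name used in the study, in which the mice carried 1 changed allele of the gene for Drp1 (Dnm1l), a GTPase that divides mitochondria. The sample labels name a flox allele, whereas the study describes a frameshift knockout made by CRISPR. No promoter or cell type of a Cre is given in the sources used here. Ischemia was that of the whole animal after blood loss through an arterial catheter. The sample codes of the ischemic mice give 2 h, whereas the study's text names another period.

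Glycolysis splits glucose into pyruvate in the cytosol and yields ATP without oxygen, and lactate dehydrogenase turns the pyruvate into lactate when it is not passed to the mitochondria. When oxygen falls, the prolyl hydroxylases no longer mark the alpha subunits of the hypoxia-inducible factors (HIFs) for degradation, and the HIFs bind short ACGTG or GCGTG sequences and raise many of the genes listed here. The subunits themselves are controlled mainly as proteins, which counts of RNA do not measure. In a small artery, smooth muscle cells form the wall, endothelium lines it, and fat, brown fat included, lies around it.

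The targeted gene Dnm1l was at 63.8, 65.7 and 90.9 CPM (read counts brought to a common library size, with TMM scaling) in WT mice and at 54.8, 60.8, 57.9 and 62.2 CPM in KO mice under normal conditions. KO and WT levels did not overlap under normal conditions, and they did overlap after ischemia (60.0 to 76.0 against 63.1 to 81.0 CPM). The log2 fold change of KO against WT mice was −0.32 ± 0.16 (standard error, SE) under normal conditions and −0.11 ± 0.16 after ischemia. Neither passed the test (adjusted p = 0.974 and 0.872 by edgeR's quasi-likelihood test). The study reported fewer reads of the targeted exon and less Drp1 protein in KO mice, and counts per gene measure neither. Total counts were 25612646 to 40255851 per mouse. The lane given in the sample codes was 1 for WT normal replicate 3 and 8 for the other 13 mice.

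Cell type markers varied widely between mice of the same group. The summed level of 6 smooth muscle markers was 7080 to 24664 CPM under normal conditions and 18454 to 35759 CPM after ischemia, with Myh11 at 2726 CPM or more in every mouse but Tagln at only 0.67 to 5.78 CPM. The summed level of 6 brown adipocyte markers was 188 to 7049 CPM in WT normal, 1200 to 6436 in KO normal, 284 to 1549 in WT ischemic and 1037 to 5042 CPM in KO ischemic mice, and Ucp1, the uncoupling protein of brown fat, ran from 40.2 to 4072 CPM. Erythroid markers summed to 107 to 592 CPM under normal conditions and 4.62 to 186 CPM after ischemia. Skeletal muscle markers summed to 165 CPM in KO ischemia replicate 4, against 29.1 CPM or less in the other 13 mice. Ckm alone was at 162 CPM there, and each of the other listed muscle markers lay within its range in the other mice. Since these are whole pieces of tissue, fewer cells of a type and less RNA per cell cannot be told apart.

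For 32 of the 35 genes RefSeq gives the 250 bases before the transcript start on GRCm38.p6, and Bnip3l, Ndrg1 and Epas1 have no entry. These windows were searched on both strands for ACGTG and GCGTG, of which ACGTG overlaps the E-box CACGTG. At least 1 match was present in 38 of the 48 windows of the 32 genes (79.2%), against 51.6% of the windows of all genes tested and 38.6% of all 32851 windows. Counted by gene, 30 of the 32 genes had a match in some window, 13 of 15 glycolytic enzymes and 10 of 10 hypoxia targets with an entry among them, against 57.5% of the tested genes with an entry and 41.5% of all symbols. The stretches below are those of Ddit4, the gene whose level moved most with ischemia, and of Slc2a1 and P4ha2, which had the next highest fold changes among the 5 genes of the list that fell below an unadjusted p of 0.05. Capitals mark the matches, on either strand, and a match describes only the letters.
Ddit4, chr10:59951835-59952020, minus strand: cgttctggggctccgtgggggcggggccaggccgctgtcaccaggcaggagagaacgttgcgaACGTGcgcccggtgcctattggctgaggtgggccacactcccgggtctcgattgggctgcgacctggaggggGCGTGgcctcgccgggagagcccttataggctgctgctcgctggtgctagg
Slc2a1, chr4:119108684-119108713, plus strand: CACGCctctcagagtcccgccccggACGTG
P4ha2, chr11:54100830-54100859, plus strand: gaggtgtgcatcgcatACGTGcagcGCGTG
In Ddit4 the matches begin 187 and 115 bases before the RefSeq start, and the stretch ends next to the first exon of the GENCODE gene (chr10:59949669-59951834). In Slc2a1 they begin 61 and 36 bases before it, at the 5′ end of the gene (chr4:119108711-119137983). In P4ha2 those shown begin 78 and 69 bases before it, with a further match at 107 that is not shown, within the span of the longer GENCODE gene (chr11:54100095-54131665). None of the 3 stretches holds CACGTG.

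Per kilobase of exon, Aldoa was the most abundant of the 35 transcripts in the artery (median 439 CPM per kb over 14 mice), followed by Pkm (209), Ldha (181), Gpi1 (110) and Tpi1 (83.1). Ddit4 came next, at 77.0 CPM per kb. The lowest were Aldoc (0.182), Ankrd37 (0.533) and Car9 (0.898 CPM per kb), and Aldoc had 0 counts in KO normal replicate 1 and in KO ischemia replicate 1, where 3 counts correspond to 0.0846 and 0.0891 CPM. Gapdh, an enzyme of the middle of the pathway that most tissues hold in plenty, was at only 7.95 CPM per kb, and Pgk1 and Pgam1 were at 17.9 and 15.1. These genes have near-identical copies in the genome, as have Tpi1, Ldha and Eno1, and how reads shared by copies were counted is not given in the sources used here, so their levels are uncertain. The Eno1 copy Eno1b was itself counted at 340 to 6344 reads per mouse. Among the isozymes, Hk2 made up 40.1% to 85.1% of the hexokinase level per kb (Hk1 plus Hk2), and Pfkl had the widest range among the phosphofructokinases, at 14.1% to 68.7% of their sum.

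**Figure D1:**
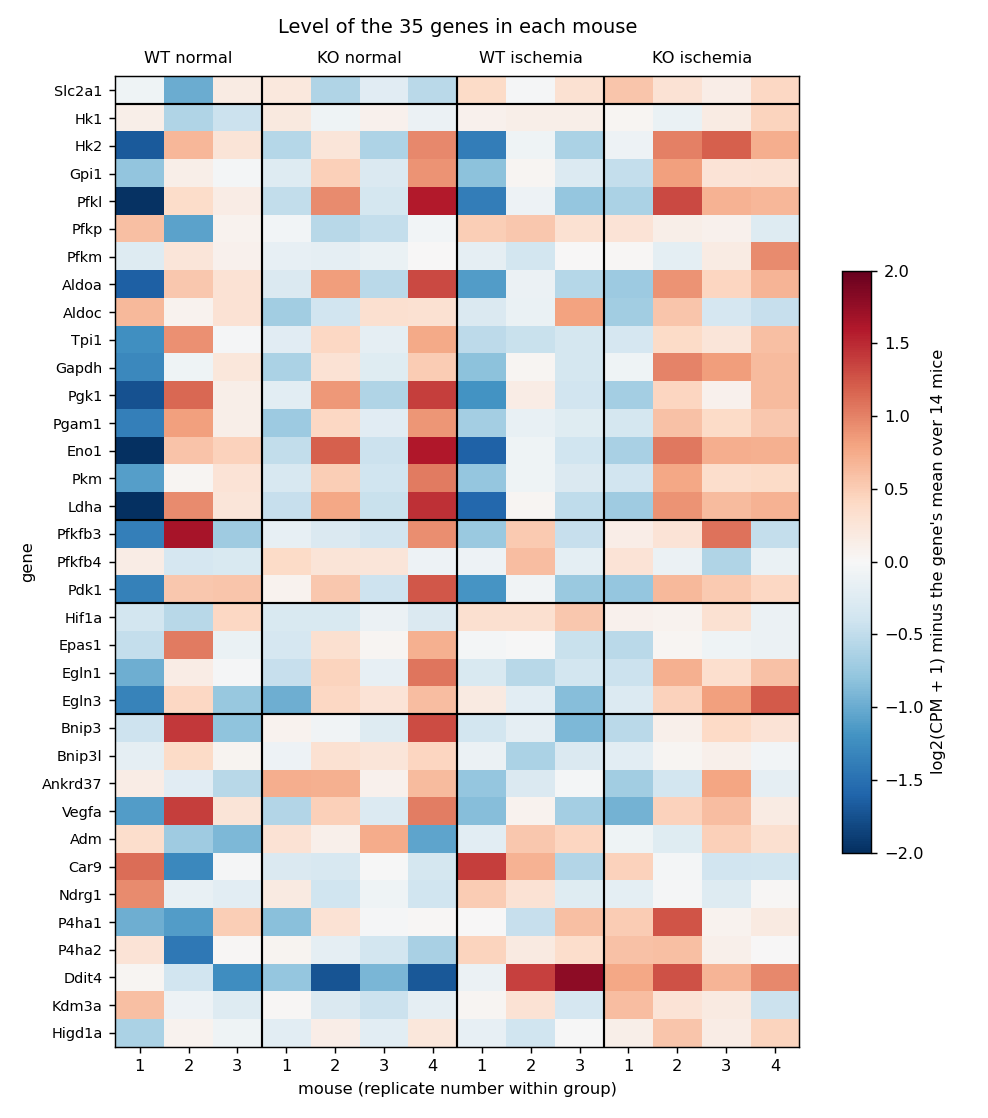
Level of the 35 genes (rows) in 14 mice (columns, by group), as log2(CPM + 1) minus the gene's mean over the mice. Rows are in the order glucose uptake, glycolytic enzymes, regulators, HIF subunits and prolyl hydroxylases, hypoxia targets. The color scale ends at −2 and 2. Most glycolytic enzymes are low together in WT normal replicate 1 and WT ischemia replicate 1 and high together in KO normal replicate 4, whereas Ddit4 is high in 6 of the 7 ischemic mice.

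Whether ischemia changed these genes was asked first over both genotypes, as the mean of the change in WT and in KO mice. Ddit4, which encodes the mTORC1 inhibitor REDD1 and is induced by hypoxia and by other stresses, rose 3.77-fold (log2 fold change 1.92 ± 0.30, adjusted p = 0.0124). It was the only 1 of the 35 genes to pass the limits used in the study, an adjusted p under 0.05 and a fold over 1.5, against 0.927% of all genes tested (164 of 17693). No glycolytic enzyme passed in either direction. At an unadjusted p under 0.05 there were 5 of the 35 (14.3%), namely Ddit4, Hif1a, Slc2a1, P4ha2 and Bnip3l, against 18.1% of all genes. None of the 35 had all 7 ischemic mice above or below all 7 normal mice, against 0.576% and 0.271% of all genes.

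Under normal conditions Ddit4 was at 142, 106 and 57.9 CPM in WT mice and at 80.8, 41.2, 72.9 and 42.1 CPM in KO mice. After ischemia it was at 128, 360 and 480 CPM in WT mice and at 239, 335, 222 and 270 CPM in KO mice. The ischemic KO mice were all above the normal KO mice, while WT ischemia replicate 1 fell below WT normal replicate 1, so the WT groups overlapped. Group means were 102 ± 42.1 (SD, n = 3) in WT normal, 59.2 ± 20.6 (n = 4) in KO normal, 323 ± 179 (n = 3) in WT ischemic and 266 ± 49.9 CPM (n = 4) in KO ischemic mice. The rise was called in all 14 fits that left out 1 mouse, with log2 fold changes of 1.72 to 2.11, and was 1.78 (adjusted p = 0.0273) in the 13 mice of lane 8. With the brown adipocyte marker level as a covariate, an alternative chosen after seeing the data, it was 1.92 (adjusted p = 0.00644).

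**Figure D2:**
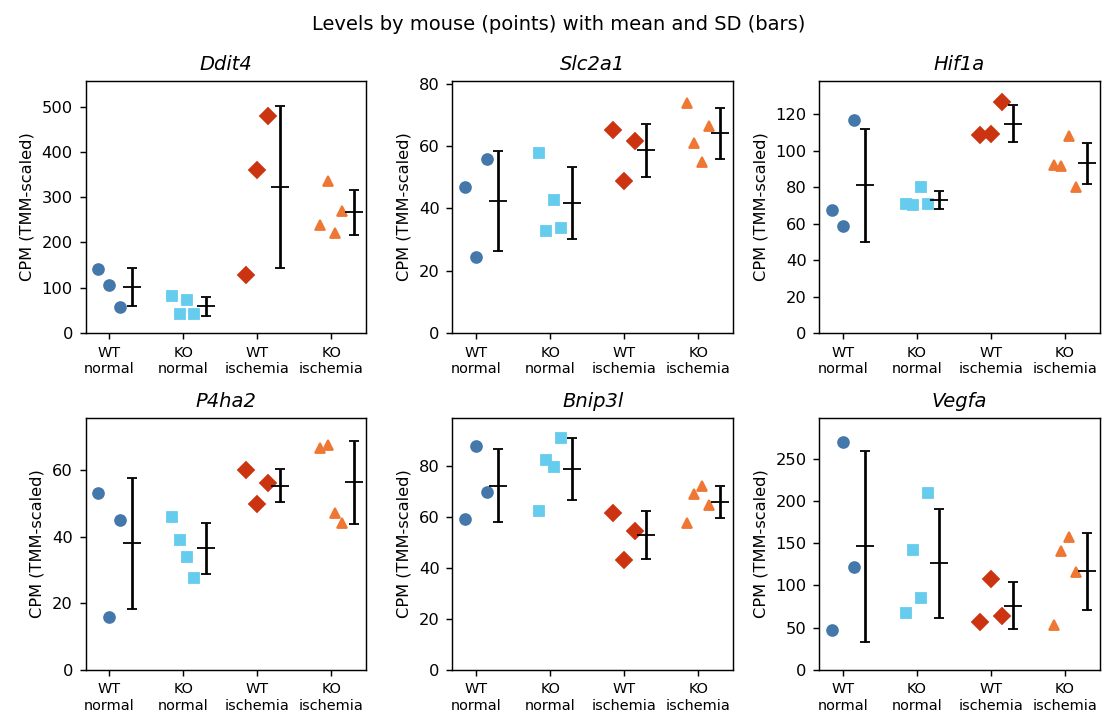
CPM of Ddit4, Slc2a1, Hif1a, P4ha2, Bnip3l and Vegfa in each mouse (points) by group, with the group mean and SD (bars) and every axis starting at 0. The 4 KO ischemic mice lie above the 4 KO normal mice for Ddit4 (222 to 335 against 41.2 to 80.8 CPM). For the other genes the normal and ischemic groups of the same genotype overlap or, for Hif1a in KO mice, only just clear each other.

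Within each genotype the same gene came first. In KO mice Ddit4 was 4.50-fold higher after ischemia (log2 fold change 2.17 ± 0.40, adjusted p = 0.0414), 1 call among the 35 against 0.294% of all genes. This call was lost in each of the 8 fits without 1 KO mouse (adjusted p = 0.0734 to 0.187) and with the replicate number as a block (adjusted p = 0.0648), with log2 fold changes of 2.03 to 2.38 throughout. In WT mice 0 of the 35 passed, against 0.0113% of all genes, with 3 of 35 at an unadjusted p under 0.05 (9.57% of all genes). Ddit4 was 1.66 ± 0.45 higher there on the log2 scale (adjusted p = 0.512 by edgeR and 0.0494 by DESeq2, which called it). The difference between the genotypes in this change, the interaction, was 0.51 on the log2 scale and did not pass.

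Slc2a1, which encodes the glucose transporter GLUT1, brings glucose into the cell. Its levels were 47.0, 24.4 and 55.7 CPM in WT normal, 57.9, 32.6, 42.6 and 33.9 in KO normal, 65.3, 48.9 and 61.7 in WT ischemic and 73.8, 61.0, 54.8 and 66.6 CPM in KO ischemic mice. The ischemic mice lay toward the upper end, with a median of 61.7 against 42.6 CPM, but overlapped the normal mice in both genotypes. The log2 fold change was 0.54 ± 0.19 over both genotypes (adjusted p = 0.175) and 0.62 ± 0.25 in KO mice (adjusted p = 0.306).

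Among the HIF subunits and prolyl hydroxylases, Hif1a (chr12:73901375-73947530, plus strand) encodes the HIF alpha subunit present in most cells. It was 0.43 ± 0.15 higher on the log2 scale after ischemia, with an adjusted p of 0.175. It was at 67.6, 58.9 and 117 CPM in WT normal mice, at 70.6, 70.4, 80.1 and 70.8 in KO normal, at 109, 109 and 127 in WT ischemic and at 92.2, 91.7, 108 and 80.1 CPM in KO ischemic mice. WT normal replicate 3, the library of lane 1, was as high as the ischemic WT mice. Without that mouse, in lane 8 alone, the log2 fold change was 0.61 and passed (adjusted p = 0.0318), and Hif1a was the only gene of the 35 to gain a call over both genotypes when 1 mouse was left out. Lane and mouse cannot be told apart for this library. In KO mice Hif1a and Ddit4 were the 2 genes whose ischemic mice were all above the normal ones (5.71% of the 35, against 5.49% of all genes), Hif1a only by 80.14 against 80.13 CPM. None was apart in the other direction, against 5.6% of all genes. In WT mice no gene of the 35 was apart in either direction, against 6.63% and 4.42% of all genes.

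Epas1, the gene of the HIF-2 alpha subunit and abundant in endothelium, was at −0.42 ± 0.24 after ischemia on the log2 scale (adjusted p = 0.364). WT normal replicate 2 had the highest level, 839 CPM, and without it the value was −0.12 (adjusted p = 0.83), and −0.22 with the brown adipocyte covariate. The prolyl hydroxylases Egln1 and Egln3 were at −0.09 and 0.32, and neither passed. Egln3 is itself a HIF target and was at 3.72 to 17.2 CPM in normal and 5.61 to 26.8 CPM in ischemic mice.

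The 12 hypoxia targets did not move to one side as a group. Their median log2 fold change over both genotypes was 0.17, with 7 of 12 above 0, beside a median of −0.05 over all genes tested. P4ha1 and P4ha2, alpha subunits of the enzyme that hydroxylates proline in collagen, had values of 0.57 ± 0.30 and 0.59 ± 0.23 (adjusted p = 0.339 and 0.216), and P4ha1 was at 0.93 without WT normal replicate 3 (adjusted p = 0.096). P4ha2 stood at 53.2, 15.8 and 44.9 CPM in WT normal, 45.8, 38.9, 33.7 and 27.6 in KO normal, 60.0, 49.9 and 56.1 in WT ischemic and 66.7, 67.5, 47.2 and 44.1 CPM in KO ischemic mice. The lowest mouse was WT normal replicate 2, and the groups overlapped in both genotypes.

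Several targets that respond to hypoxia in many cell types had values below 0. The mitophagy receptors Bnip3 and Bnip3l were at −0.59 ± 0.36 and −0.35 ± 0.13 on the log2 scale (adjusted p = 0.397 and 0.195), and Vegfa, the growth factor of endothelium, at −0.53 ± 0.38 (adjusted p = 0.476). Without WT normal replicate 2 Bnip3 was at −0.075 and Vegfa at −0.12, and without KO normal replicate 4 they were at −0.34 and −0.35. With the brown adipocyte covariate Bnip3 was at −0.30 and Vegfa at −0.13. Bnip3l stood at 59.3, 87.8 and 70.0 CPM in WT normal, 62.4, 82.5, 79.7 and 91.0 in KO normal, 61.5, 42.9 and 54.7 in WT ischemic and 57.8, 69.0, 72.1 and 64.7 CPM in KO ischemic mice. Its ischemic mice were low as a set but not apart from the normal ones. The vasodilator peptide gene Adm was at 0.31, the carbonic anhydrase Car9 at 0.42, the histone demethylase Kdm3a at 0.16, the mitochondrial protein Higd1a at 0.17, the stress gene Ndrg1 at −0.02 and Ankrd37 at −0.68, with none past the limits.

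The values of most glycolytic enzymes were below 0, without a call. Their median log2 fold change over both genotypes was −0.17, with 4 of 15 above 0 and a range of −0.52 to 0.38, and without WT normal replicate 2 it was 0.03, with 8 of 15 above 0. The highest were Pfkp, at 0.38 ± 0.21 (adjusted p = 0.362), Gapdh, at 0.27, and Hk1, at 0.26 ± 0.14 (adjusted p = 0.339). Without WT normal replicate 1 Pfkp was at 0.60 and Hk1 at 0.39, and without WT normal replicate 2 Pfkp was at 0.21, with no call. Aldoa, which cleaves fructose bisphosphate, was at 488 to 3817 CPM (median 1860) in normal and 703 to 2837 CPM (median 1397) in ischemic mice. Ldha, which makes lactate, was at 134 to 1485 CPM (median 642) in normal and 183 to 1011 CPM (median 556) in ischemic mice. Both ranges of the ischemic mice lay inside those of the normal mice. Pdk1, the kinase that inhibits pyruvate dehydrogenase, was at −0.47 ± 0.35 (adjusted p = 0.488). It was at −0.28 without KO normal replicate 4 and at −0.20 with the covariate. The regulators Pfkfb3 and Pfkfb4 were at −0.17 and −0.01.

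The median of the enzymes was −0.47 in WT mice and 0.01 in KO mice. Both values moved with single mice: in WT mice the median was −0.89 without WT normal replicate 1 and −0.08 without WT normal replicate 2, and in KO mice it was 0.35 without KO normal replicate 4 and −0.15 without KO ischemia replicate 2. The medians of the hypoxia targets were −0.04 in WT and 0.16 in KO mice, and over the fits without 1 mouse they ran from −0.11 to 0.20 and from 0.10 to 0.28.

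**Figure D3:**
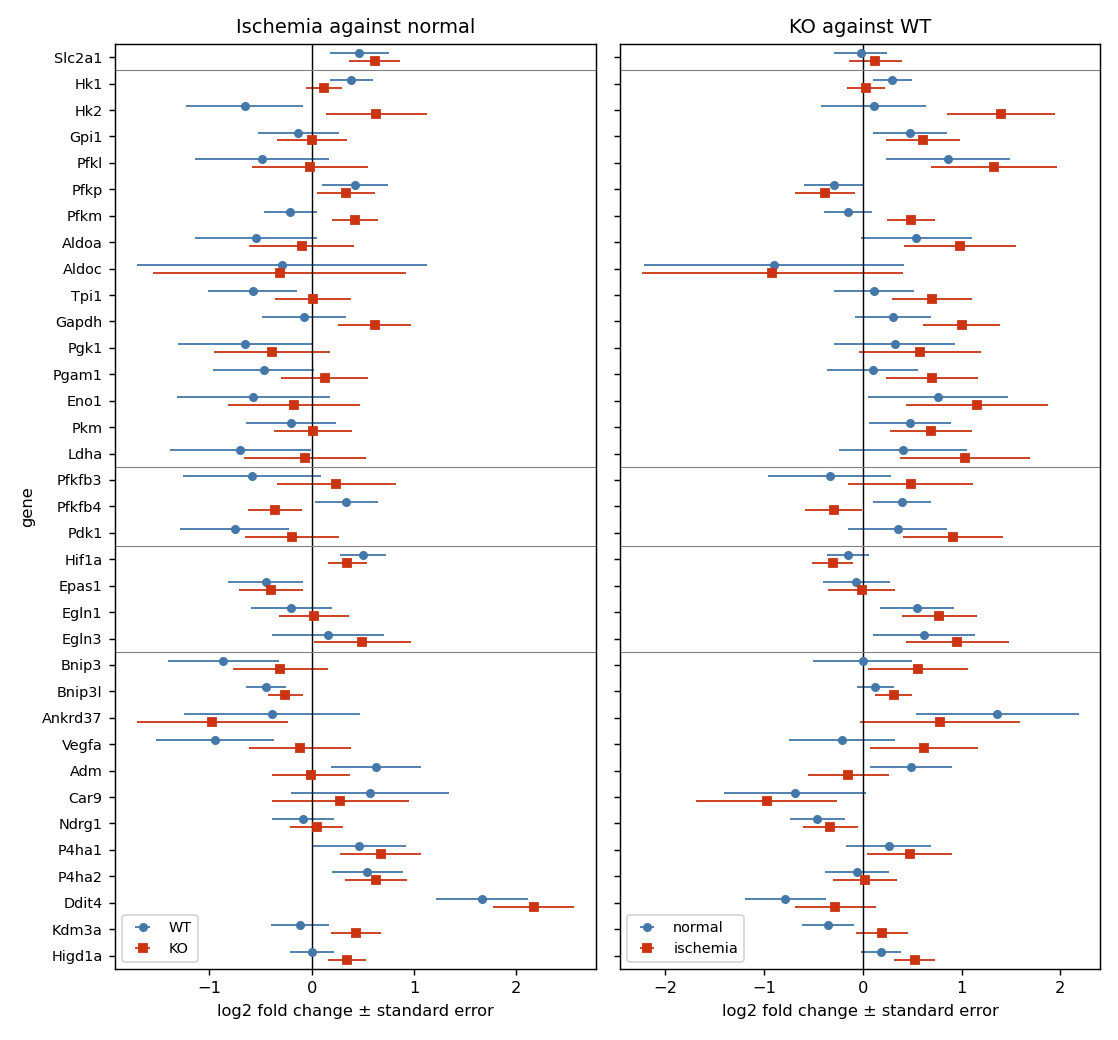
Log2 fold change with SE of each of the 35 genes, for ischemia against normal in WT (circles) and KO (squares) on the left and for KO against WT under normal conditions (circles) and after ischemia (squares) on the right. Ddit4 lies apart on the left at 1.66 in WT and 2.17 in KO mice, and on the right 13 of the 15 glycolytic enzymes lie above 0 after ischemia.

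Smooth muscle markers reached higher and erythroid markers lower sums after ischemia, with the ranges given above, and their part in these values was not tested. Across mice of the same group, the glycolytic enzymes followed the brown adipocyte markers. In each group, the mouse with the highest mean log2(CPM + 1) of the 6 markers was set beside the one with the lowest. For 11 of the 15 enzymes (73.3%) the former had the higher level in all 4 groups, against 15.8% of all genes tested. Of the 12 hypoxia targets 2 did so (16.7%), namely Vegfa and Bnip3, while Slc2a1, P4ha2 and Car9 had the lower level there in all 4 groups. Ddit4 was higher in 2 of the 4 groups. This is a description over 8 mice, with no test. The mouse lowest in the markers was replicate 1 in all 4 groups, so marker level and replicate number cannot be told apart in it. The general adipocyte markers moved with the brown ones, at 916, 13172 and 3644 CPM in the WT normal mice and highest of the KO normal mice in replicate 4 (8189 CPM). Smooth muscle markers ran the other way in part: WT normal replicate 2 (7080 CPM) and KO normal replicate 4 (10268 CPM) were lowest in their groups. WT ischemia replicate 1 was the highest mouse (35759 CPM). However, KO ischemia replicate 4, the highest of its group in mean log2(CPM + 1) of the brown markers, was at 22077 CPM, above replicate 3 (18454 CPM). WT normal replicate 1, the lowest of its group in the brown markers, was at 19875 CPM, below replicate 3 (24664 CPM). Endothelial markers moved with the brown ones in part. Within each group they were highest in WT normal replicate 2 (1679 CPM), KO normal replicate 4 (1333), WT ischemia replicate 2 (1288) and KO ischemia replicate 4 (1121 CPM). These were also the mice highest in the brown markers by mean log2(CPM + 1). By summed CPM of the brown markers, KO ischemia replicate 2 was above replicate 4 (5042 against 4594 CPM). The lowest endothelial sums were in replicate 1 of the KO groups and in replicate 3 of the WT groups. The separate parts of these marker lists in the enzyme level were not tested.

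The summed level of the 15 enzymes ran from 2349 to 6851 CPM in WT normal mice, where the brown adipocyte markers ran from 188 to 7049 CPM, and from 3903 to 11381 CPM in KO normal mice, where the markers ran from 1200 to 6436 CPM. The 12 hypoxia targets summed to 680 to 1077 and 684 to 966 CPM in the same mice, a narrower range for the sum. Single targets varied more than their sum. The ratio of the highest to the lowest of the 14 mice had a median of 4.63 over the targets and 5.15 over the enzymes. With the marker level as a covariate the median of the enzymes for ischemia was 0.14 over both genotypes, with 13 of 15 above 0, in place of −0.17 with 4 of 15. No enzyme passed in that fit either, and Ddit4 was the 1 gene of the 35 called, against 2.58% of all genes, with 9 of the 35 (25.7%) at an unadjusted p under 0.05 against 21.5% of all genes.

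**Figure D4:**
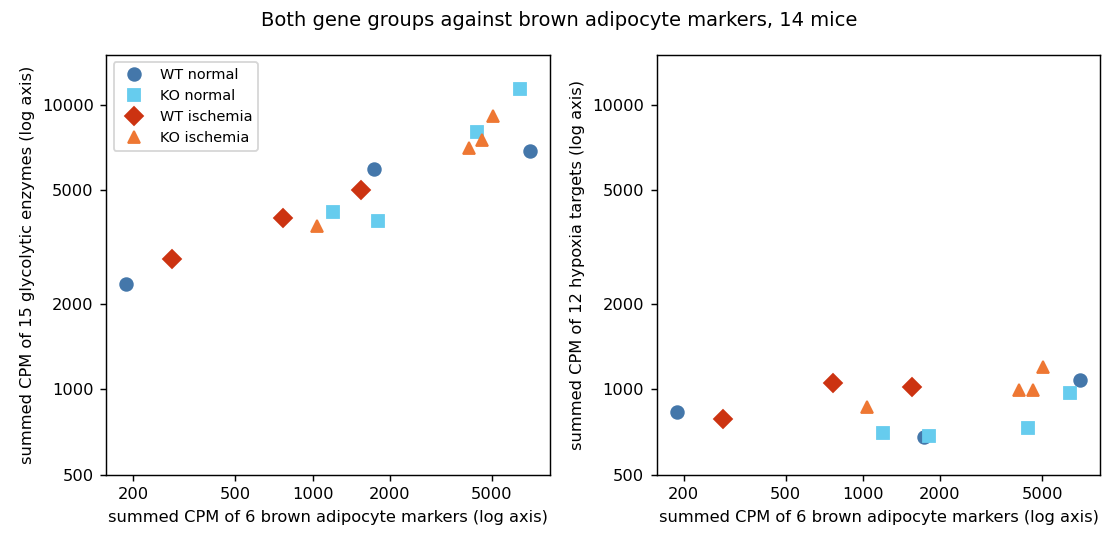
Summed CPM of the 15 glycolytic enzymes (left) and of the 12 hypoxia targets (right) against the summed CPM of 6 brown adipocyte markers in 14 mice, with log axes and 1 point per mouse. The enzymes run from 2349 CPM in the mouse with the lowest markers (188 CPM) to 11381 CPM in a mouse with 6436 CPM of the markers. The mouse with the highest markers, WT normal replicate 2 (7049 CPM), is at 6851 CPM of the enzymes. The sum of the targets stays between 680 and 1196 CPM.

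The comparison of KO with WT mice asks whether these genes differed with the Drp1 allele. Under normal conditions 0 of the 35 genes passed in edgeR, as did 0% of all genes tested, and 0 of the 35 were at an unadjusted p under 0.05 (5.25% of all genes). DESeq2 also called 0 of the 35. The smallest p values were those of Ddit4, at −0.78 ± 0.41 on the log2 scale (adjusted p = 0.974, and −0.47 without WT normal replicate 1), Ankrd37, at 1.36 ± 0.82, and Ndrg1, at −0.46 ± 0.28 (adjusted p = 0.981 for both). Without WT normal replicate 1, where Ndrg1 was at 271 CPM against 121 and 127 CPM in the other WT normal mice, its value was 0.023, and with the brown adipocyte covariate it was −0.20. No gene of the 35 separated the genotypes, against 2.59% of all genes with every KO mouse higher and 1.9% with every KO mouse lower. The median of the enzymes was 0.31 and that of the hypoxia targets −0.03. The former was −0.08 without KO normal replicate 4, which had the highest brown adipocyte markers of its group, −0.02 without WT normal replicate 1, which had the lowest of its own, 0.65 without WT normal replicate 2 and −0.06 with the marker level as a covariate.

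After ischemia 0 of the 35 passed in edgeR and 0% of all genes did, with 3 of the 35 (8.57%) at an unadjusted p under 0.05 against 6.48% of all genes, and DESeq2 called 0 of the 35. The 3 were Higd1a, a small protein of the respiratory chain (0.53 ± 0.20), Gapdh (1.0 ± 0.39) and Hk2, the inducible hexokinase (1.40 ± 0.55), each with the higher mean in KO mice and an adjusted p of 0.715. Higd1a was at 47.0, 40.2 and 52.7 CPM in WT and at 57.9, 78.7, 58.9 and 73.0 CPM in KO mice, so all KO mice were above all WT mice. Hk2 was at 60.8, 151 and 102 CPM in WT and at 148, 324, 366 and 265 CPM in KO mice, with only KO ischemia replicate 1 below the highest WT mouse. Gapdh was at 18.5, 34.5 and 26.1 CPM in WT and at 31.2, 67.6, 60.1 and 52.2 CPM in KO mice, with the same KO mouse inside the WT range. That mouse had the lowest brown adipocyte markers of the KO ischemic mice (1037 CPM against 4067 to 5042 CPM). With the marker level as a covariate Higd1a and Gapdh were both at 0.23 (adjusted p = 0.893 and 0.934).

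Besides Higd1a, the triose phosphate isomerase Tpi1 was at a higher level in every KO mouse (194 to 371 against 170 to 192 CPM), so 2 of 35 (5.71%) were apart in this direction, against 4.74% of all genes. Pfkp, the platelet type of phosphofructokinase, and Hif1a were at a lower level in every KO mouse, again 5.71%, against 5.97% of all genes. Pfkp was at 336, 345 and 293 CPM in WT and at 288, 259, 252 and 199 CPM in KO mice (log2 fold change −0.38 ± 0.30). With the marker level as a covariate both enzymes changed sign, Pfkp to 0.022 ± 0.26 and Tpi1 to −0.19 ± 0.23. These shares were close to those of all genes.

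The enzymes lay mostly to one side: 13 of 15 had a log2 fold change above 0, with a median of 0.70 beside −0.03 for all genes, and the median stayed between 0.55 and 0.89 when any 1 mouse was left out. The 4 with the highest values were Hk2 (1.40), the liver type phosphofructokinase Pfkl (1.33), the enolase Eno1 (1.16) and Ldha (1.04), and those below 0 were Pfkp and Aldoc. The hypoxia targets had a median of 0.25, with 8 of 12 above 0. Brown adipocyte markers reached higher sums in the KO ischemic mice than in the WT ischemic mice, at 1037 to 5042 against 284 to 1549 CPM. With their level as a covariate the median of the enzymes was −0.10, with 5 of 15 above 0, and that of the hypoxia targets was 0.19, with 9 of 12 above 0. Eno1 was then at −0.49 ± 0.36, Ldha at −0.42 ± 0.24, Pfkl at −0.05 ± 0.34 and Hk2 at 0.26 ± 0.24. None of the 35 passed the limits in this fit, as 0% of all genes did, and 4 (11.4%) were at an unadjusted p under 0.05 against 6.43% of all genes. These were Pgk1, the phosphoglycerate kinase (−0.77 ± 0.23, adjusted p = 0.618), Vegfa (−0.60 ± 0.24, adjusted p = 0.72), Epas1 (−0.61 ± 0.25, adjusted p = 0.747) and Slc2a1 (0.54 ± 0.24, adjusted p = 0.763). Since the markers differed between these groups, genotype and content of brown adipocyte RNA cannot be fully told apart in these 7 mice.

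**Figure D5:**
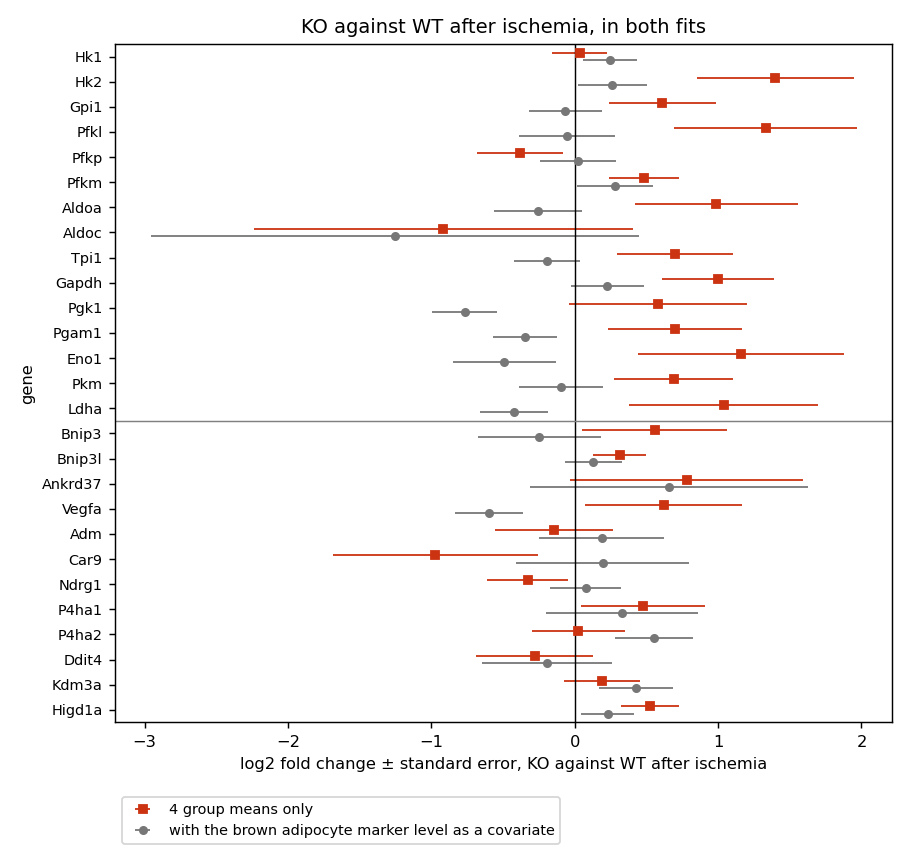
Log2 fold change with SE of the 15 glycolytic enzymes (above the line) and 12 hypoxia targets (below it) for KO against WT mice after ischemia, from the fit with the 4 group means (squares) and from the one with the brown adipocyte marker level added (circles). The median of the enzymes is 0.70 in the first and −0.10 in the second, and Ddit4 lies at −0.28 and −0.19.

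In KO ischemia replicate 4 the skeletal muscle marker Ckm was high, while the other listed muscle markers were not. The muscle type phosphofructokinase Pfkm was at 183 CPM there, against 72.7 to 111 CPM in the other 13 mice. Pgam2, the muscle type phosphoglycerate mutase and not a listed gene, was at 131 CPM there and at 17.7 CPM or less elsewhere. Without that mouse the median of the enzymes for KO against WT after ischemia was 0.63.

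The interaction, which tests whether the change with ischemia differed between KO and WT mice, called 0 of the 35 genes and 0% of all genes in edgeR, with 0 of the 35 at an unadjusted p under 0.05 (4.32% of all genes) and 0 of the 35 called by DESeq2. The smallest p values were those of Pfkm (0.63 ± 0.34), Hk2 (1.29 ± 0.75) and Pfkfb4 (−0.69 ± 0.41), with an adjusted p of 0.946 for all 3. Pfkm was at 0.33 without KO ischemia replicate 4, the mouse with high Ckm. Pfkfb4 was at −0.31 without WT ischemia replicate 2, and Hk2 at 0.60 with the brown adipocyte covariate. The median of the enzymes was 0.45, with 12 of 15 above 0. It was 0.91 without WT normal replicate 1 and 0.12 without WT normal replicate 2, the WT normal mice with the lowest and the highest brown adipocyte markers, and −0.16 with the marker level as a covariate.

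The wider pathways gave few calls. Of 36 other genes of glucose metabolism 33 were tested, and 0 passed for ischemia over both genotypes in edgeR, with 1 higher and 4 lower at an unadjusted p under 0.05 (15.2%). Of 45 other genes of the hypoxia response 43 were tested and 1 passed, with 8 higher and 4 lower at an unadjusted p under 0.05 (27.9%). Over all genes 0.927% passed and 18.1% were at an unadjusted p under 0.05. The 1 called was Cxcr4, a chemokine receptor of leukocytes and endothelium, which fell by 2.75 on the log2 scale over both genotypes (SE 0.40, adjusted p = 0.00836) and by 3.07 in KO mice (adjusted p = 0.0278). Cxcr4 was at 3.07, 2.34 and 1.70 CPM in WT normal and 4.54, 4.97, 3.70 and 5.09 CPM in KO normal mice. After ischemia it was at 0.486, 0.408 and 0.414 CPM in WT and 0.0891, 0.8293, 0.643 and 0.608 CPM in KO mice. In KO ischemia replicate 1, 0.0891 CPM corresponds to 3 counts, so that level rests on few reads. All ischemic mice were below the normal mice of their genotype, against 4.42% of all genes in WT and 5.6% in KO mice. Macrophage markers summed to 162 to 604 CPM under normal conditions and 60.8 to 331 CPM after ischemia, lymphocyte markers to 1.21 to 10.9 and 0.486 to 2.25 CPM, and their part in this difference was not tested.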

How the data were processed

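RNA-seq of the superior mesenteric artery of 14 mice was analysed from 1 table of whole-number read counts per gene symbol that the authors deposited without normalization and without pooling mice. Per the submitters' processing notes, HISAT2 2.0.4 and the build mm10 were used. The study's text names pacBioToCA for mapping, and the counting program, annotation and strand setting are not given in the sources used here. Groups and replicate numbers came from the sample labels, and each library is 1 mouse.

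The analysis used edgeR 4.0.16 (with limma 3.58.1) under R 4.3.3, and DESeq2 1.42.0 as an alternative. The function filterByExpr, given the 4 groups, chose the genes, TMM scaled the libraries, and 1 quasi-likelihood model of the 4 groups gave 6 comparisons, with Benjamini-Hochberg adjustment over all 17693 genes. A call needed an adjusted p under 0.05 and a fold over 1.5. Levels are CPM, and 3 counts were taken as the smallest level shown. Lengths of merged exons came from GENCODE M21. The 35 genes and the other lists were chosen with earlier results of these data known. All 35 genes are accounted for, with full statistics for genes called in any comparison, the 12 with the smallest p for ischemia over both genotypes and the 3 with the smallest p in each other comparison. The steps were tested on simulated data. Alternatives were DESeq2, RLE scaling, a looser and a stricter low-count filter, calls by adjusted p alone, the replicate number as a block, only the 2 groups compared, each mouse left out, and the brown adipocyte marker level as a covariate, the last chosen after seeing the data.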

Additional observations from a re-analysis of the deposited data

Results flagged for a closer look

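In the groups of 4 mice, 1 mouse stood apart from the other 3 by Dixon's criterion for 4 of the 70 pairs of gene and group tested, and chance gives about 1 in 20. Pfkfb3, the regulator that makes an activator of phosphofructokinase, was at 508 CPM in KO normal replicate 4, against 203 to 237 CPM in the other KO normal mice. Bnip3 was at 309 CPM in the same mouse, against 104 to 130 CPM. That mouse had the highest brown adipocyte markers of its group (6436 CPM), and their part in these levels was not tested. Hif1a was at 80.1 CPM in KO normal replicate 3, against 70.4 to 70.8 CPM, and Car9 was at 2.39 CPM in the same mouse, against 1.69 to 1.81 CPM.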

How the results depend on the processing

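For the genes named by rule, 539 values kept their direction and their side of the limits, 2 gained a call, 9 lost one and 1 changed sign. Ddit4 for ischemia over both genotypes was called under 5 of 5 alternatives, with the added covariate and in 14 of 14 fits without 1 mouse. The number of the 35 genes called over both genotypes was 1, and 1 to 2 without 1 mouse (2 without WT normal replicate 3, where Hif1a was added). In WT mice it was 0, and 1 with DESeq2. In KO mice it was 1, and 0 to 1 without 1 mouse, since each KO mouse left out ended the call. Ndrg1 for KO against WT under normal conditions ranged from −0.66 (without WT normal replicate 3) to 0.023 (without WT normal replicate 1) when 1 mouse was left out, and the cause was not tested. With the replicate number as a block the count in KO mice was 0, with Ddit4 at 2.19 (adjusted p = 0.0648), and the block changed no other count of calls among the 35. The labels do not say whether same-numbered mice share more than the number. Their deviations correlated at −0.146 to 0.316 (median 0.12, 11 of 19 pairs over 0.1). Those of differently numbered mice in different groups correlated at −0.382 to 0.328 (median −0.0447, 9 of 54 pairs over 0.1). Over all genes, calls for ischemia over both genotypes were 164, 876 with DESeq2, 456 with the brown adipocyte covariate and 60 at the fewest without 1 mouse. In KO mice they were 52, 613 with DESeq2, 328 with the covariate, 267 with only the 2 groups and 5 at the fewest. In WT mice they were 2 and 112 with DESeq2, and for KO against WT mice DESeq2 gave 50 under normal conditions and 32 after ischemia in place of 0, and 13 for the interaction. Without WT normal replicate 2, edgeR called 29 for KO against WT under normal conditions. The spread between mice, at a biological coefficient of variation of 0.522, limits the precision of these comparisons.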

Other observations

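The metallothioneins Mt1 and Mt2, which bind zinc and copper and were among the other genes of the hypoxia response, were named here after their values were seen. Mt2 was at 373, 60.1 and 43.8 CPM in WT normal and 202, 35.04, 65.5 and 84.0 CPM in KO normal mice. After ischemia it was at 173, 1186 and 570 CPM in WT and 574, 585, 698 and 611 CPM in KO mice. The KO groups were apart, as were those of 5.49% of all genes in this direction. WT ischemia replicate 1 lay inside the range of the WT normal mice, as it did for Ddit4. Over both genotypes the log2 fold change was 2.35 ± 0.56 for Mt2 and 1.66 ± 0.41 for Mt1, and neither passed (adjusted p = 0.0689 and 0.0784).

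With the brown adipocyte marker level as a covariate, 7 of the 76 other pathway genes tested (9.21%) passed for ischemia over both genotypes, against 2.58% of all genes in that fit. The lists were chosen with earlier results of these data known, and the covariate after seeing the data. These shares are therefore no test of the pathways. Mt2 (2.59), Mt1 (1.75), the placental growth factor gene Pgf (1.30), the lactate exporter Slc16a3 (1.198) and the clock repressor Bhlhe40 (0.76) were higher on the log2 scale. Cxcr4 (−2.74) and Pfkfb1 (−1.18) were lower, with adjusted p values of 0.0052 to 0.0491 for the 7 genes. Without the covariate only Cxcr4 of these 7 passed.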
